A study of Homo sapiens with 42 samples.

Results

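BIRC5 encodes survivin, a small protein of the inhibitor of apoptosis family that is also a subunit of the chromosomal passenger complex. The gene lies on the + strand of chromosome 17 (78214186 to 78225636, GRCh38). It was followed here through the separate 3′ ends of its transcripts. The members were every entry of the gene in 3 deposited tables of 3′-end sequencing, found by the transcript identifiers of GENCODE 29 and by the genomic positions listed under them. They came to 5 of the 94924 entries of each table, namely 1 annotated transcript end (ENST00000301633.8) and 4 position entries. The gene was 1 of 42145 with entries that could be assigned, and all 5 entries are described below, each apart and summed. BIRC5 was selected on its measured levels and end shares in these same libraries, over all of the comparisons below. Its values are therefore given as a description, with standard errors and the overlap of libraries but with no p-value. How many of all genes or ends had libraries without overlap was not counted. A lack of overlap is thus given without a background, and the shares of called features beside it are another measure.

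In dividing cells survivin works with the kinase Aurora B (AURKB), the scaffold INCENP and borealin (CDCA8) at centromeres and the spindle midzone, where the complex corrects chromosome attachments and helps cytokinesis. The BIRC5 gene is transcribed mainly around mitosis and is kept low in resting cells by repressor complexes of the E2F and DREAM type. A gene whose last exon holds several polyadenylation sites can give mRNAs that share one protein but differ in the length of the 3′ untranslated region. HNRNPC is a nuclear RNA-binding protein known to bind runs of U.

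All libraries came from MDA-MB-231, an established human breast cancer cell line of mesenchymal character, and were made with the QuantSeq REV kit, which reads from the poly(A) tail so that 1 read marks 1 transcript end. The 42 libraries formed 14 groups of 3. The knockdown table held gHNRNPC cells, which are poorly metastatic cells labelled as an HNRNPC knockdown, and gCTRL cells as their control, each as cytoplasmic and nuclear RNA. The cell line table held LM2 cells, labelled highly metastatic to the lungs, and Par cells, labelled poorly metastatic, in the same fractions. In the T4 table LM2 cells had received the compound T4 at 3 µM, against LM2 cells with as much of its solvent DMSO. The agent was present for 6 h, and cells were harvested at 6 h, or after a change of medium at 24 and 72 h. The labels do not say that replicates were separate cultures, nor how the knockdown was made or from how many clones, so the spread between replicates may be technical.

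Libraries held 0.798 to 2.305 M counts (M, mega), and 31 to 713 of them fell on BIRC5. The T4 library 3 at 6 h stood apart, with the lowest BIRC5 count (31 reads) and a scaling factor of 0.502, and so did the nuclear libraries 2 of LM2 and Par cells, with scaling factors of 0.721 and 0.731. In the comparisons of BIRC5 and of the gene lists, values without one of these libraries are given where leaving it out moved the value by over 1.5 times or ended a call. Levels are in CPM, counts scaled to the library total with TMM factors, and are thus relative to the other RNA of the same library. ESR1 and PGR, hormone receptor genes that MDA-MB-231 cells are known to lack, had at most 1 read over the 3 libraries of a group. Immune marker genes summed to 16.7 to 20.8 CPM in gHNRNPC cytoplasm against 5.64 to 8.09 CPM in gCTRL cytoplasm, and to 46.5 to 125.3 CPM in gHNRNPC nuclei against 30.2 to 35.2 CPM in gCTRL nuclei, with CD3E at 0 in all 4 groups, and their part in the results was not tested. HNRNPC, the target, averaged 99.1 ± 13.0 CPM in gHNRNPC cytoplasm and 508 ± 31.8 CPM in gCTRL cytoplasm (SD, n = 3 each, log2 -2.36 ± 0.19, edgeR adjusted p = 1.6e-08). In nuclei it averaged 97.7 ± 15.9 CPM in gHNRNPC cells and 530 ± 95.4 CPM in gCTRL cells (log2 -2.44 ± 0.20, edgeR adjusted p = 1.2e-08).

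The annotated end is that of the last exon, exon 5, which runs from 78223465 to 78225636 on chromosome 17 (GRCh38). It is called the distal end here, and 3 of the 11 annotated BIRC5 transcripts share it. From the stop codon to that end the transcript has 2082 bases of 3′ untranslated region. The 4 other ends were deposited as positions 76221211, 76220780, 76220299 and 76219844 on the + strand of chromosome 17. These lie outside the GRCh38 span of BIRC5, although the submitters' processing notes name hg38, which is the same build. Across all position entries of a table, 9.66% fell inside such a span. The stated build and the listed positions thus conflict, and the conflict was not resolved. The 4 BIRC5 positions were not converted. They are 431, 481 and 455 bases apart, and are taken as upstream of the distal end because the tables list positions below the transcript end they belong to. Position 76220780 is called the main upstream end and position 76220299 the minor upstream end.

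The letters that mark where such an mRNA can be cut are shown because the finding turns on the choice between ends. In the 3′ untranslated region of ENST00000301633.8 the hexamer AATAAA occurred 3 times and its variant ATTAAA once, searched on the transcript strand only. Each 30-base window below is from GENCODE 29 (GRCh38, + strand), written 5′ to 3′ with the hexamer in capitals. The first ends at the annotated distal end itself, with its hexamer 26 bases from it.
chr17:78225607-78225636: gccAATAAAgtctcatgtggttttatctac
chr17:78225318-78225347: gttAATAAAgccgtaggcccttgtctaagt
chr17:78224674-78224703: agaAATAAAaagcctgtcatttcaaacact
chr17:78224198-78224227: acaATTAAAactaagcacaaagccattcta

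Of 56493 annotated transcript ends in the tables, 18.01% held AATAAA in their last 30 bases, as the distal end of BIRC5 did. The 3 upstream hexamers start 315, 959 and 1435 bases before the distal end. At least 3 AATAAA were found in 26.0% of the 13089 transcripts of sufficient length over their last 2082 bases, and ATTAAA in 56.2%. No hexamer was assigned to a position entry. The hexamers 959 and 1435 bases from the end are 476 bases apart, and the main and minor upstream ends are 481 bases apart, which is a description of letters and positions and places no site. The region also held 11 runs of 5 or more T (U in the RNA), the kind of sequence HNRNPC is known to bind, and the longest had 13 T, in capitals here.
chr17:78224048-78224077: gttgttgtgtttttttgTTTTTTTTTTTTT

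The median over the 13089 transcripts was 4 such runs in the same length, 11.2% had at least 11, and 8.85% had a run of at least 13 T. For these counts and those of the hexamers, the last 2082 bases were taken from transcripts of any kind. Such stretches can hold coding sequence or noncoding RNA, while that of BIRC5 is 3′ untranslated region only. Binding of HNRNPC was not measured in these libraries.

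Without the knockdown most BIRC5 reads fell on the main upstream end. Its share of the gene's reads averaged 90.7 ± 2.92% in LM2 cytoplasm, 88.8 ± 1.68% in Par cytoplasm and 88.7 ± 0.94% in gCTRL cytoplasm (SD, n = 3 each). The distal end took most of the rest. The minor upstream end had 71 reads over the 3 gCTRL cytoplasm libraries, position 76221211 had 0 to 3 reads in a library, and position 76219844 had 1 read in all 42 libraries. These last 2 positions did not pass the filter on low counts in any table and enter the sums only.

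After HNRNPC knockdown the distal end of BIRC5 was higher and both upstream ends were lower, in the cytoplasm and in nuclei. In the cytoplasm the distal end was 4.11-fold higher and the main upstream end 2.65-fold lower, so that the summed level was lower and a larger share of the reads lay at the distal end. In nuclei the distal end was 4.59-fold higher and the main upstream end 2.25-fold lower, while the summed levels overlapped.

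The distal end was at 57.1, 83.2 and 74.4 CPM in the 3 gHNRNPC cytoplasm libraries, against 15.6, 16.1 and 20.2 CPM in the 3 gCTRL cytoplasm libraries. The lowest gHNRNPC library was above the highest gCTRL library (log2 2.04 ± 0.27, with ± a standard error of the edgeR fit). The values rest on 106, 164 and 175 reads in gHNRNPC cytoplasm, against 29, 30 and 43 reads in gCTRL cytoplasm. By the size of the log2 difference the distal end ranked 396 of the 10915 ends measured in this comparison, of which 22.5% were called, meaning an edgeR adjusted p under 0.05. Since the choice of BIRC5 used this contrast, nothing is read from that rank.

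The main upstream end was at 78.6, 87.2 and 97.3 CPM in gHNRNPC cytoplasm, against 246.6, 213 and 238 CPM in gCTRL cytoplasm. All gHNRNPC libraries were below all gCTRL libraries (log2 -1.40 ± 0.19). The minor upstream end averaged 2.86 ± 1.08 CPM in gHNRNPC cytoplasm and 12.1 ± 0.31 CPM in gCTRL cytoplasm (SD, n = 3 each, log2 -2.04 ± 0.48), again with no overlap. It rests on 18 reads in gHNRNPC cytoplasm and 71 reads in gCTRL cytoplasm.

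The mean difference was 54.2 CPM at the distal end and -145 CPM at the main upstream end. Summed over all ends, BIRC5 was at 137, 175 and 176 CPM in gHNRNPC cytoplasm, against 275, 241 and 270 CPM in gCTRL cytoplasm. The summed level was 1.61-fold lower with no overlap of libraries (log2 -0.69 ± 0.18). In this comparison 23.4% of the 9351 genes tested on summed counts were called. The transcript end alone and the sum over ends thus went in opposite directions, and a table of annotated ends without the position entries would give a log2 difference of 2.04.

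In nuclei the distal end was at 54.9, 66.2 and 33.1 CPM in gHNRNPC cells, against 14.5, 7.70 and 11.1 CPM in gCTRL cells. No library overlapped (log2 2.20 ± 0.31), and 12.2% of the 10915 ends were called in this comparison. The main upstream end was at 45.6, 39.4 and 48.8 CPM in gHNRNPC nuclei, against 92.5, 122 and 87.8 CPM in gCTRL nuclei. These did not overlap either (log2 -1.17 ± 0.21). The minor upstream end had 2 reads over the gHNRNPC nuclear libraries, against 15 reads over the gCTRL nuclear libraries.

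Summed BIRC5 was at 102, 106 and 81.9 CPM in gHNRNPC nuclei, against 109, 134 and 102 CPM in gCTRL nuclei. The 2 ranges overlap (log2 -0.25 ± 0.19), and 14.1% of genes were called. The mean difference in nuclei was 40.3 CPM at the distal end and -56.1 CPM at the main upstream end. The difference of the knockdown effect on the sum, nuclei minus cytoplasm, was 0.43 ± 0.26 on the log2 scale, with n = 3 libraries in each of the 4 groups.

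**Figure D1:**
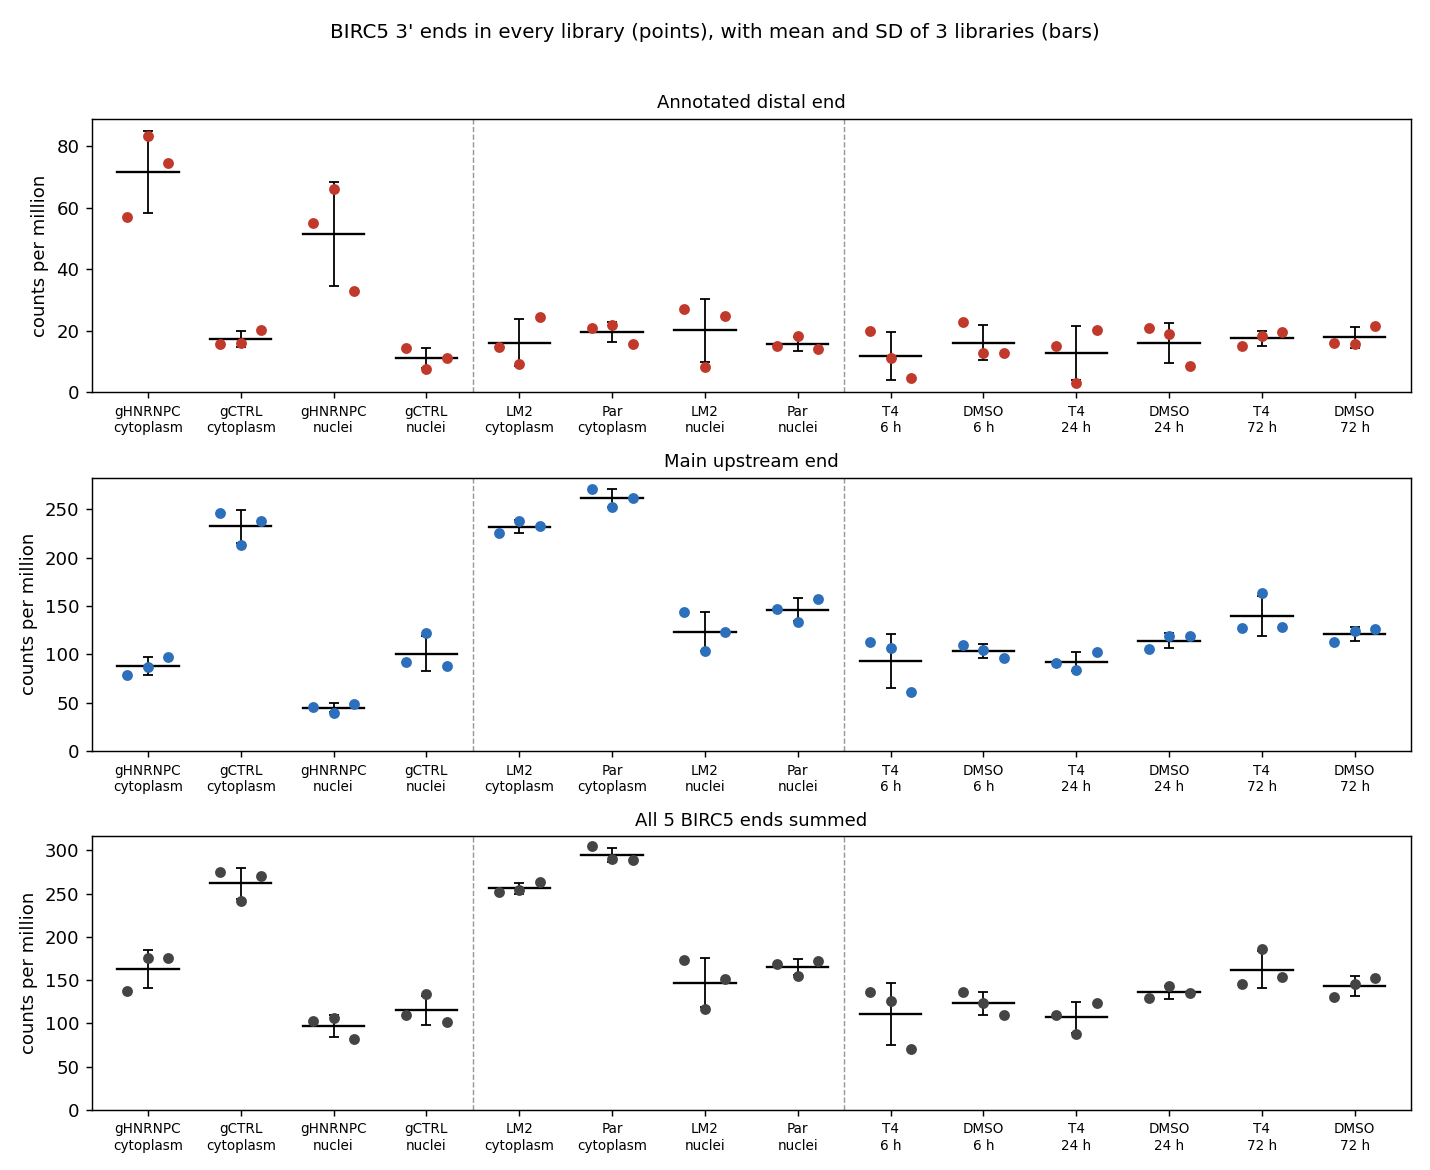
BIRC5 level in CPM (counts scaled to library size, with TMM) in each of the 42 libraries, for the distal end, the main upstream end and the 5 ends summed. Points are libraries, horizontal lines group means and vertical bars the SD of 3 libraries. In gHNRNPC cytoplasm the distal end sits between 57.1 and 83.2 CPM, above the 15.6 to 20.2 CPM of gCTRL cytoplasm, while its main upstream end lies at 78.6 to 97.3 CPM, below the 213 to 246.6 CPM of gCTRL cytoplasm.

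The share of BIRC5 reads at the distal end shows the shift apart from library scaling. In gHNRNPC cytoplasm it was 41.6, 47.4 and 42.4%, with 95% Wilson intervals that ran from 35.7 to 52.7% over the 3 libraries. In gCTRL cytoplasm it was 5.70, 6.67 and 7.49%, with intervals from 3.996 to 9.94%. The intervals, which cover counting error only, did not meet between the groups.

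In gHNRNPC nuclei the distal share was 53.7, 62.7 and 40.4%, against 13.2, 5.74 and 10.97% in gCTRL nuclei. The gHNRNPC nuclear libraries were the most spread of the 4 groups, and their lowest interval began at 31.6% while the highest of gCTRL nuclei ended at 19.1%. As group means the distal share was 43.8 ± 3.16% in gHNRNPC cytoplasm and 6.62 ± 0.90% in gCTRL cytoplasm (SD, n = 3 each). In nuclei it was 52.3 ± 11.2% in gHNRNPC cells and 9.98 ± 3.84% in gCTRL cells.

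End use was measured as the log2 ratio of distal to main upstream reads. The ratio was 10.8-fold higher in gHNRNPC cytoplasm than in gCTRL cytoplasm (log2 3.44 ± 0.35) and 10.1-fold higher in nuclei (log2 3.33 ± 0.39). Leaving out each library in turn gave log2 values of 3.32 to 3.54 in the cytoplasm and 2.98 to 3.68 in nuclei. The shift did not differ in size between fractions beyond its error, the difference (nuclei minus cytoplasm) being -0.11 ± 0.55.

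Among the 899 genes whose 2 most used ends could be given an order and each averaged at least 10 counts, BIRC5 had the fifth largest difference of end use in the cytoplasm and the second in nuclei. Since the choice of BIRC5 used its end shares in these contrasts, nothing is read from these ranks. Site use was called for 13.1% of those genes in the cytoplasm and for 4.45% in nuclei. The larger shifts in the cytoplasm were those of EIF4A2 (log2 -5.09), NUP214 (4.31), SPECC1L (4.15) and NET1 (-3.75), where a positive value means more use of the distal end. In nuclei only SPECC1L (3.34), of the 899 genes, had a larger value than BIRC5. Directions were mixed among genes, with 90 called toward the distal end and 28 toward the proximal end in the cytoplasm. In pairs of a transcript end and a position, the transcript end was taken as distal from the listing, as for BIRC5, and not from coordinates. A further 269 genes had no order and were left out.

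**Figure D2:**
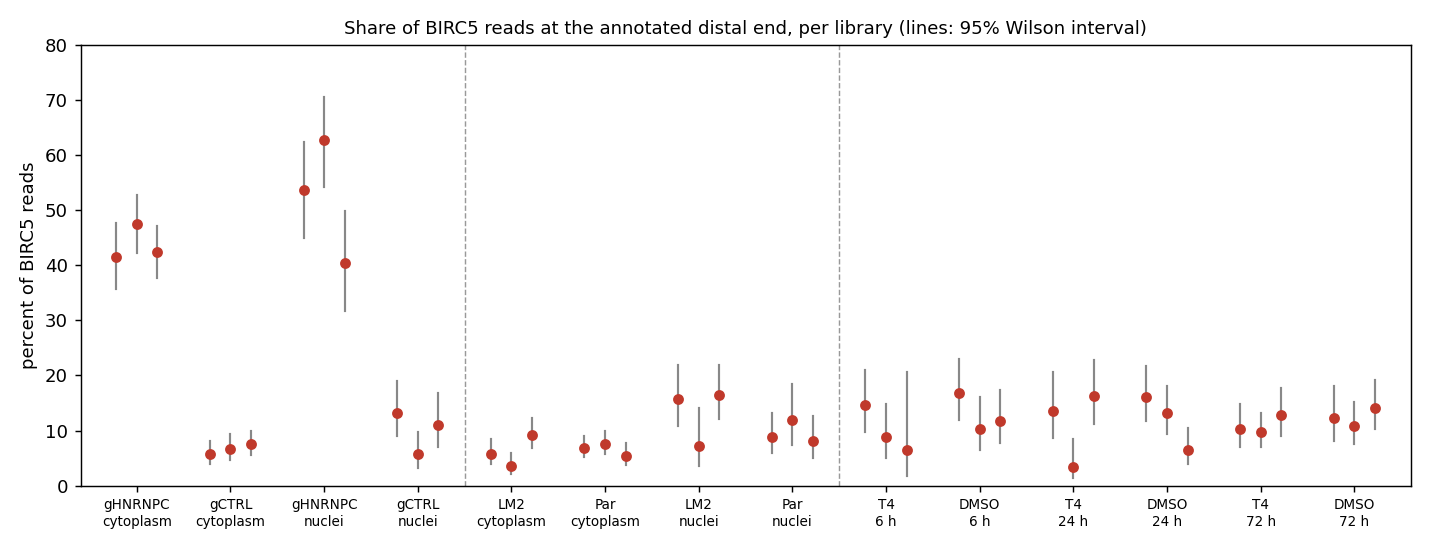
Percent of BIRC5 reads at the distal end in each library, with 95% Wilson intervals as bars. The 6 gHNRNPC libraries lie between 40.4 and 62.7%, and the other 36 libraries between 3.42 and 16.8%.

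**Figure D3:**
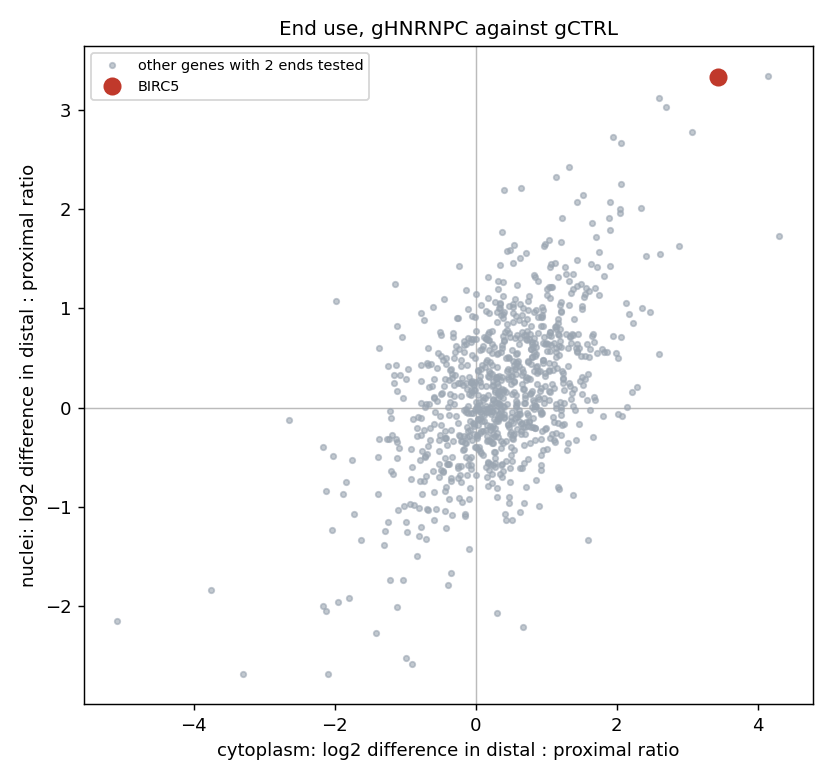
Log2 difference of distal over proximal reads between gHNRNPC and gCTRL cells for each of the 899 genes, cytoplasm on one axis and nuclei on the other. BIRC5 is marked at 3.44 in the cytoplasm and 3.33 in nuclei.

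The partners of survivin in the chromosomal passenger complex had lower summed levels in the knockdown cells for AURKB and INCENP. AURKB, the complex's kinase, averaged 589 ± 41.6 CPM in gHNRNPC cytoplasm and 917 ± 36.4 CPM in gCTRL cytoplasm (SD, n = 3 each), and fell there (log2 -0.64 ± 0.17, edgeR adjusted p = 0.0074) and in nuclei (-1.04 ± 0.17, edgeR adjusted p = 0.00019). INCENP, its scaffold, fell in the cytoplasm (-1.12 ± 0.23, edgeR adjusted p = 0.00099) and in nuclei (-1.23 ± 0.25, edgeR adjusted p = 0.0013). CDCA8, the borealin gene, had log2 differences of -0.57 ± 0.23 and -0.48 ± 0.23 that did not pass (edgeR adjusted p = 0.071 and 0.19). Of 7 measured genes of the 11 listed for the complex and its recruitment to centromeres, 0 rose and 2 fell in each fraction. Over all genes tested, 11.7% rose and 11.7% fell in the cytoplasm, and 8.43% rose and 5.70% fell in nuclei. Their median log2 difference was -0.57 in the cytoplasm and -0.55 in nuclei, against medians of 0.01 and 0.04 over all genes tested.

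Of 30 measured genes of the G2/M phase (35 listed), in which BIRC5 is known to be transcribed, 0 rose and 3 fell in the cytoplasm, a share no higher than the 11.7% of all genes that fell there. In nuclei 0 rose and 6 fell, where 5.70% of all genes fell. DLGAP5, a spindle assembly factor, fell in the cytoplasm (log2 -1.12 ± 0.25, edgeR adjusted p = 0.0025) and in nuclei (-1.07 ± 0.28, edgeR adjusted p = 0.013). UBE2C, a ubiquitin-conjugating enzyme of mitotic exit, fell too (-0.58 in the cytoplasm and -0.96 in nuclei), as did RACGAP1, a cytokinesis factor (-0.64 and -0.91). The proliferation marker MKI67 fell in nuclei (-0.71 ± 0.21, edgeR adjusted p = 0.021).

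Of 13 measured G1/S and replication genes (15 listed), 0 rose and 7 fell in the cytoplasm, and 0 rose and 4 fell in nuclei. Of all genes 11.7% fell in the cytoplasm and 5.70% in nuclei. The helicase subunits MCM5 (-1.46 ± 0.23, edgeR adjusted p = 7.0e-05), MCM4 (-1.44 ± 0.43, edgeR adjusted p = 0.018) and MCM3 (-1.13 ± 0.19, edgeR adjusted p = 0.00016) and the licensing factor CDT1 (-1.24 ± 0.28, edgeR adjusted p = 0.0024) had the largest differences in the cytoplasm. In nuclei the largest were those of RRM1 (-0.81), CDC6 (-0.67), MCM3 (-0.66) and PCNA (-0.60). The list's median was -0.70 in the cytoplasm and -0.62 in nuclei, against 0.01 and 0.04 over all genes tested.

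Among 10 measured transcriptional regulators of the cell cycle (13 listed), 2 rose and 3 fell in the cytoplasm, and 2 rose and 2 fell in nuclei. Of all genes 11.7% rose and 11.7% fell in the cytoplasm, and 8.43% rose and 5.70% fell in nuclei. CDKN1A, the p21 inhibitor of cyclin-dependent kinases, averaged 236 ± 16.4 CPM in gHNRNPC cytoplasm and 88.0 ± 5.30 CPM in gCTRL cytoplasm (SD, n = 3 each), and it rose in the cytoplasm (log2 1.42 ± 0.17, edgeR adjusted p = 1.7e-06) and in nuclei (1.79 ± 0.18, edgeR adjusted p = 3.1e-07). MYBL2, an activator of G2/M genes, fell in the cytoplasm (-0.98 ± 0.18, edgeR adjusted p = 0.00046) and in nuclei (-0.79 ± 0.21, edgeR adjusted p = 0.011). E2F4 rose in the cytoplasm (0.90). TFDP1 (-0.88) and LIN52 (-0.61) fell in the cytoplasm and RBL1 (-1.40) in nuclei.

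Of the other inhibitor of apoptosis genes, 3 of 7 listed were measured. None of the 3 was called in the cytoplasm, and in nuclei, where 5.70% of all genes fell, BIRC2 fell (-0.67 ± 0.21, edgeR adjusted p = 0.036). Of 7 measured caspases and antagonists of these inhibitors (10 listed), CASP8, an initiator caspase (2.36 ± 0.59, edgeR adjusted p = 0.0053), and CYCS, cytochrome c (0.62 ± 0.19, edgeR adjusted p = 0.023), rose in the cytoplasm, and DIABLO, which blocks inhibitors of apoptosis, fell (-0.77 ± 0.27, edgeR adjusted p = 0.045), a call that ended with library totals in place of TMM. None of the 7 was called in nuclei. Of all genes 11.7% rose and 11.7% fell in the cytoplasm. Of 6 genes for partners that stabilise or export survivin, the chaperone gene HSP90AB1 rose in the cytoplasm (0.71, edgeR adjusted p = 0.0040), the deubiquitinase gene USP9X fell (-1.17, edgeR adjusted p = 0.0077), and none was called in nuclei.

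Nuclei held a lower relative level of BIRC5 than cytoplasm in all 4 kinds of cell. Fraction markers were checked first. Of 5 measured cytoplasmic markers all 5 were lower in gCTRL nuclei and 4 of 5 in gHNRNPC nuclei, and 4 of 4 measured were lower in both LM2 and Par nuclei. Of 2 measured nuclear markers, 2 were higher in gHNRNPC and gCTRL nuclei and 1 in LM2 and Par nuclei. In LM2 cells the 6 listed nuclear markers, with reads for 2, summed to 68.9 to 73.8 CPM in nuclei against 74.8 to 80.6 CPM in cytoplasm. In gHNRNPC, gCTRL and Par cells that sum was higher in nuclei, in Par cells at 65.1 to 69.7 CPM against 50.7 to 61.5 CPM. The part of the lower sum in the LM2 values was not tested. Within the cytoplasm the 6 cytoplasmic markers summed to 25933 to 31463 CPM in gHNRNPC cells against 34378 to 40014 CPM in gCTRL cells, and 1 of the 5 measured was called lower.

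Summed BIRC5 averaged 96.6 ± 12.8 CPM in gHNRNPC nuclei and 163 ± 22.1 CPM in gHNRNPC cytoplasm (SD, n = 3 each, log2 -0.75 ± 0.19). In gCTRL cells it was at 109, 134 and 102 CPM in nuclei, against 275, 241 and 270 CPM in cytoplasm (log2 -1.19 ± 0.18). In LM2 cells it was at 173, 117 and 151 CPM in nuclei, against 251, 254 and 263 CPM in cytoplasm (log2 -0.80 ± 0.16). In Par cells it was at 169, 154 and 172 CPM in nuclei, against 305, 290 and 289 CPM in cytoplasm (log2 -0.84 ± 0.16). No nuclear library overlapped the cytoplasm of the same cells, in comparisons where 54.4, 61.5, 54.9 and 47.8% of genes were called in gHNRNPC, gCTRL, LM2 and Par cells. These shares are of each fraction's own RNA, so they do not give the amount of BIRC5 mRNA per cell.

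The ends differed in how far they followed the sum. The main upstream end was lower in nuclei, without overlap, by log2 differences of -0.98 ± 0.21 in gHNRNPC, -1.21 ± 0.19 in gCTRL, -0.91 ± 0.16 in LM2 and -0.84 ± 0.16 in Par cells, where 51.2, 59.7, 55.2 and 46.8% of ends were called. The distal end had log2 differences of -0.48 ± 0.26, -0.64 ± 0.32, 0.34 ± 0.42 and -0.32 ± 0.42 in the same order, and of 0.67 in LM2 cells without nuclear library 2. Its nuclear and cytoplasmic libraries overlapped in all but gCTRL cells, where the nuclear libraries held 14.5, 7.70 and 11.1 CPM against 15.6, 16.1 and 20.2 CPM in the cytoplasm.

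The distal share was 9.60 ± 1.99% in Par nuclei and 6.62 ± 1.06% in Par cytoplasm (SD, n = 3 each), with all nuclear libraries above. In LM2 cells it was 15.7, 7.14 and 16.4% in nuclei, against 5.81, 3.62 and 9.25% in cytoplasm, and these overlapped. The log2 ratio of distal to main upstream reads was higher in nuclei by 0.47 ± 0.35 in gHNRNPC, 0.57 ± 0.40 in gCTRL, 1.24 ± 0.44 in LM2 and 0.52 ± 0.43 in Par cells. Without nuclear library 2 of Par cells, the value in Par cells was 0.35. Over all genes tested for site use, 14.6, 31.3, 37.3 and 13.3% were called in gHNRNPC, gCTRL, LM2 and Par cells. The median log2 difference over those genes was 0.16, 0.36, 0.48 and 0.25 in the same order. More genes were called toward the distal than toward the proximal end in each, so a higher ratio in nuclei was not particular to BIRC5.

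Between LM2 and Par cells the summed level of BIRC5 was lower in LM2 cytoplasm, and it overlapped in nuclei. In the cytoplasm the sum was at 251, 254 and 263 CPM in LM2 cells, against 305, 290 and 289 CPM in Par cells. All LM2 libraries were below all Par libraries, by a log2 difference of -0.20 ± 0.16, in a comparison that called 10.9% of 8541 genes. That share is of calls, and the share of genes without overlap was not counted. The main upstream end, which held most of the reads, was at 225, 238 and 233 CPM in LM2 cytoplasm, against 271, 252 and 262 CPM in Par cytoplasm (log2 -0.17 ± 0.16). These groups did not overlap either, and 10.4% of 9874 ends were called. The distal and minor upstream ends, described below, had log2 differences of -0.28 ± 0.41 and -0.74 ± 0.46.

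The size of the difference in the sum depends on scaling. It was -0.08 with median-of-ratios scaling and -0.27 with library totals. Relative to the median of all genes it was -0.18 under each of these and as reported. The minor upstream end averaged 7.34 ± 3.03 CPM in LM2 cytoplasm and 12.3 ± 1.73 CPM in Par cytoplasm (SD, n = 3 each, log2 -0.74 ± 0.46), from 36 reads in LM2 and 77 reads in Par libraries, and these did not overlap.

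The distal end overlapped between the lines. It was at 14.6, 9.19 and 24.4 CPM in LM2 cytoplasm, against 20.9, 21.9 and 15.8 CPM in Par cytoplasm (log2 -0.28 ± 0.41). The distal share was 6.23 ± 2.84% in LM2 cytoplasm and 6.62 ± 1.06% in Par cytoplasm (SD, n = 3 each). End use differed by -0.17 ± 0.41 on the log2 scale, an interval wide enough to hold a shift of either sign. Across all 828 genes measured, edgeR called site use in 0%, while 170 had an unadjusted p under 0.05, and 0 and 6 called by limma on the log2 ratio with pseudocounts of 1 and 5.

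In nuclei the sum was at 173, 117 and 151 CPM in LM2 cells, against 169, 154 and 172 CPM in Par cells (log2 -0.17 ± 0.16). The ranges overlapped for the sum and for every end, where 1.88% of ends were called. The lowest LM2 value came from library 2, and without it the log2 difference of the sum was -0.03. Without library 2 of Par nuclei it was -0.21. The distal end was at 27.1, 8.33 and 24.9 CPM in LM2 nuclei, against 14.9, 18.3 and 14.0 CPM in Par nuclei (log2 0.39 ± 0.43). That difference was 0.15 without LM2 library 1 and 0.73 without LM2 library 2. End use differed by 0.54 ± 0.44, or by 0.31 without LM2 library 3 and 0.87 without LM2 library 2, a measure for which 0% of 828 genes passed in edgeR, 32 had an unadjusted p under 0.05, and limma called none. The difference of the LM2 effect on end use, nuclei minus cytoplasm, was 0.72 ± 0.61.

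Of the partner genes, INCENP rose in LM2 cytoplasm (log2 0.67 ± 0.15, edgeR adjusted p = 0.023), at 49.3 ± 4.39 CPM in LM2 and 30.9 ± 3.48 CPM in Par cells (SD, n = 3 each), a call that ended with library totals. AURKB was at 0.01 ± 0.15 (edgeR adjusted p = 0.97) and CDCA8 at -1.09 ± 0.40 (edgeR adjusted p = 0.11). In nuclei, where 2.21% of genes were called, none of the 3 was called (0.12, 0.02 and -0.70 for INCENP, AURKB and CDCA8). Among the 6 measured genes of the complex's list, 1 rose and 0 fell in the cytoplasm. Over all genes 3.96% rose and 6.95% fell there, and 1.15% rose and 1.07% fell in nuclei. The list's median was -0.10, against -0.02 over all genes.

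Of 31 measured G2/M genes in the cytoplasm, 1 rose and 3 fell, shares close to the 3.96% and 6.95% of all genes that rose and fell there. CDC25B, a phosphatase that activates cyclin-dependent kinases, rose (1.11 ± 0.17, edgeR adjusted p = 0.0039), and the mitotic genes ANLN (-2.20 ± 0.49), KIF2C (-1.39 ± 0.30) and CCNB2 (-0.81 ± 0.21) fell. With library totals none of these 3 calls held. RBL1 (-1.27) also fell in the cytoplasm. In nuclei, where 1.07% of all genes fell, MYBL2 fell (-1.005 ± 0.15, edgeR adjusted p = 0.0046) and no other gene of these lists was called. It was at -1.004 without nuclear libraries 2 of both lines (edgeR adjusted p = 0.017), and its call ended with library totals. Of 7 measured caspases and antagonists of these inhibitors, 0 rose and 1 fell in the cytoplasm, also lost with library totals, and 0 were called in nuclei. Of 14 G1/S genes and 3 other inhibitor of apoptosis genes none was called in either fraction. Fibroblast marker genes, with reads for 1 of 3, summed to 7.93 to 8.89 CPM in LM2 cytoplasm against 0 to 1.43 CPM in Par cytoplasm, and to 27.1 to 60.7 CPM in LM2 nuclei against 0 to 0.82 CPM in Par nuclei. The cytoplasmic fraction markers summed to 37093 to 40270 CPM in LM2 cytoplasm against 26603 to 32196 CPM in Par cytoplasm, and the part of either in these differences was not tested.

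BIRC5 after T4 was measured in total RNA of LM2 cells, in which fewer cells with the mRNA and less mRNA per cell cannot be told apart. At 6 h the sum was at 136, 126 and 69.8 CPM with T4, against 136, 123 and 110 CPM with DMSO. The groups overlapped (log2 -0.13 ± 0.22), and the low value was that of T4 library 3. Without that library the log2 difference was 0.09. The main upstream end overlapped as well (log2 -0.12 ± 0.22, or 0.09 without T4 library 3). So did the distal end (log2 -0.28 ± 0.51, or -0.85 to 0.04 with 1 library left out). In this comparison 16.0% of 8035 genes were called, and the median of all genes was at -0.11, or -0.50 with library totals. Relative to that median the sum of BIRC5 was at -0.02.

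At 24 h the sum was at 109, 87.9 and 124 CPM with T4, against 129, 143 and 135 CPM with DMSO. All T4 libraries were below all DMSO libraries (log2 -0.34 ± 0.22, or -0.22 without T4 library 2), in a comparison that called 5.24% of genes. The share of genes without overlap was not counted here either. The main upstream end, which held most of the reads, was at 91.0, 83.4 and 103 CPM with T4, against 105, 118 and 119 CPM with DMSO (log2 -0.30 ± 0.21). These groups did not overlap, and 5.00% of 9078 ends were called. The distal end was at 14.9, 3.00 and 20.1 CPM with T4, against 20.8, 18.9 and 8.64 CPM with DMSO. It overlapped (log2 -0.36 ± 0.48, or -0.90 to 0.12 with 1 library left out).

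At 72 h the main upstream end was at 127, 163 and 128 CPM with T4, against 113, 124 and 126 CPM with DMSO. Here all T4 libraries were above (log2 0.21 ± 0.21), although the lowest of T4 (127.3 CPM) and the highest of DMSO (126.0 CPM) were close, and 0.165% of ends were called. Without T4 library 2 the log2 difference was 0.087. The distal end overlapped (log2 -0.02 ± 0.44). The sum was at 146, 186 and 153 CPM with T4, against 130, 145 and 153 CPM with DMSO, and overlapped (log2 0.18 ± 0.21, or 0.074 without T4 library 2). Of all genes 0.261% were called, 21 genes, or 12 with the replicate number as a block. The T4 effect on the sum at 72 h minus that at 24 h was 0.52 ± 0.31 on the log2 scale.

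The minor upstream end was too low in the T4 table to pass the filter on low counts. It averaged 4.41, 1.94 and 4.37 CPM with T4 at 6, 24 and 72 h, and 3.37, 5.14 and 3.91 CPM with DMSO (n = 3 each), with overlap at each harvest.

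The distal share of the T4 libraries overlapped that of the DMSO libraries at each harvest. The distal share was 14.6, 8.82 and 6.45% with T4 against 16.8, 10.3 and 11.7% with DMSO at 6 h. It was 13.6, 3.42 and 16.2% with T4 against 16.1, 13.2 and 6.42% with DMSO at 24 h. It was 10.2, 9.75 and 12.8% with T4 against 12.3, 10.8 and 14.2% with DMSO at 72 h. Taken by replicate number at 72 h, where the libraries of a number deviated together, the share was lower with T4 in 3 of 3 pairs and the sum higher with T4 in 3 of 3, by under 1 CPM in the third. That pairing is inferred from the data, and with the number as a block the log2 difference was -0.22 ± 0.44 for end use and 0.18 ± 0.23 for the sum. Single T4 libraries held as few as 2 distal reads, so a change of the share of moderate size was not detectable at this depth. The log2 differences of end use were -0.25 ± 0.52, -0.13 ± 0.48 and -0.22 ± 0.45 at 6, 24 and 72 h (-0.13 at 6 h without T4 library 3), where 5.66, 2.67 and 0% of 636 genes were called by edgeR. At 72 h 23 genes had an unadjusted p under 0.05, and limma called none.

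**Figure D4:**
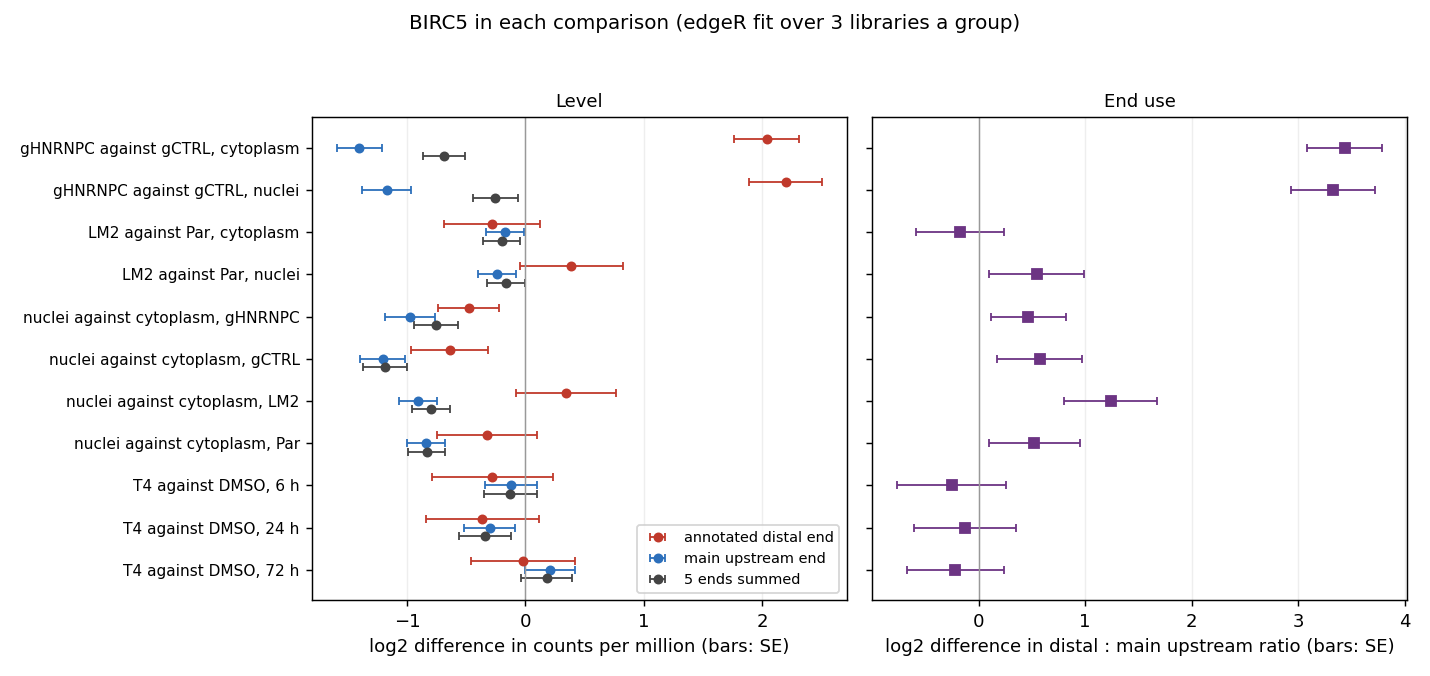
Log2 difference in BIRC5 level (distal end, main upstream end, 5 ends summed) and in end use (distal over main upstream reads) in each comparison, the first-named group over the other, with bars of 1 standard error of the edgeR fit. The knockdown values for the distal end (2.04 and 2.20) and for end use (3.44 and 3.33) lie apart from those of LM2 against Par and of T4 against DMSO, which lie between -0.36 and 0.54.

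Of the partners of survivin, AURKB and CDCA8 fell at 6 h of T4, a harvest at which the BIRC5 libraries overlapped. AURKB averaged 436 ± 26.8 CPM with T4 and 753 ± 81.3 CPM with DMSO (SD, n = 3 each) and fell (log2 -0.79 ± 0.18, edgeR adjusted p = 0.0070). CDCA8 averaged 14.8 ± 5.46 CPM with T4 and 51.4 ± 11.7 CPM with DMSO and fell (-1.69 ± 0.38, edgeR adjusted p = 0.0052). INCENP did not pass (-0.44 ± 0.33, edgeR adjusted p = 0.37). Of 5 measured genes of the complex's list 0 rose and 3 fell, the third being TTK (-0.86 ± 0.27, edgeR adjusted p = 0.038). Of all genes 3.41% rose and 12.6% fell at 6 h, and without T4 library 3 907 of 8405 fell. Without T4 library 3, 2 of 5 fell, AURKB (-0.82, edgeR adjusted p = 0.0039) and CDCA8 (-1.52, edgeR adjusted p = 0.017), while INCENP was at -0.82 (edgeR adjusted p = 0.10) and TTK at -0.78 (edgeR adjusted p = 0.087).

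At 24 h AURKB was still lower, at 378 ± 49.9 CPM with T4 and 754 ± 85.4 CPM with DMSO (SD, n = 3 each, log2 -0.996 ± 0.18, edgeR adjusted p = 0.0050). It was the 1 gene of 5 that fell, where 3.04% of all genes fell, with CDCA8 at -0.42 ± 0.32 and INCENP at 0.20 ± 0.30. At 72 h, where 0.261% of all genes were called, none of the 5 was called, and AURKB was at -0.25 ± 0.18 (edgeR adjusted p = 0.76). Whether the T4 effect differs between BIRC5 and its partners was not tested.

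**Figure D5:**
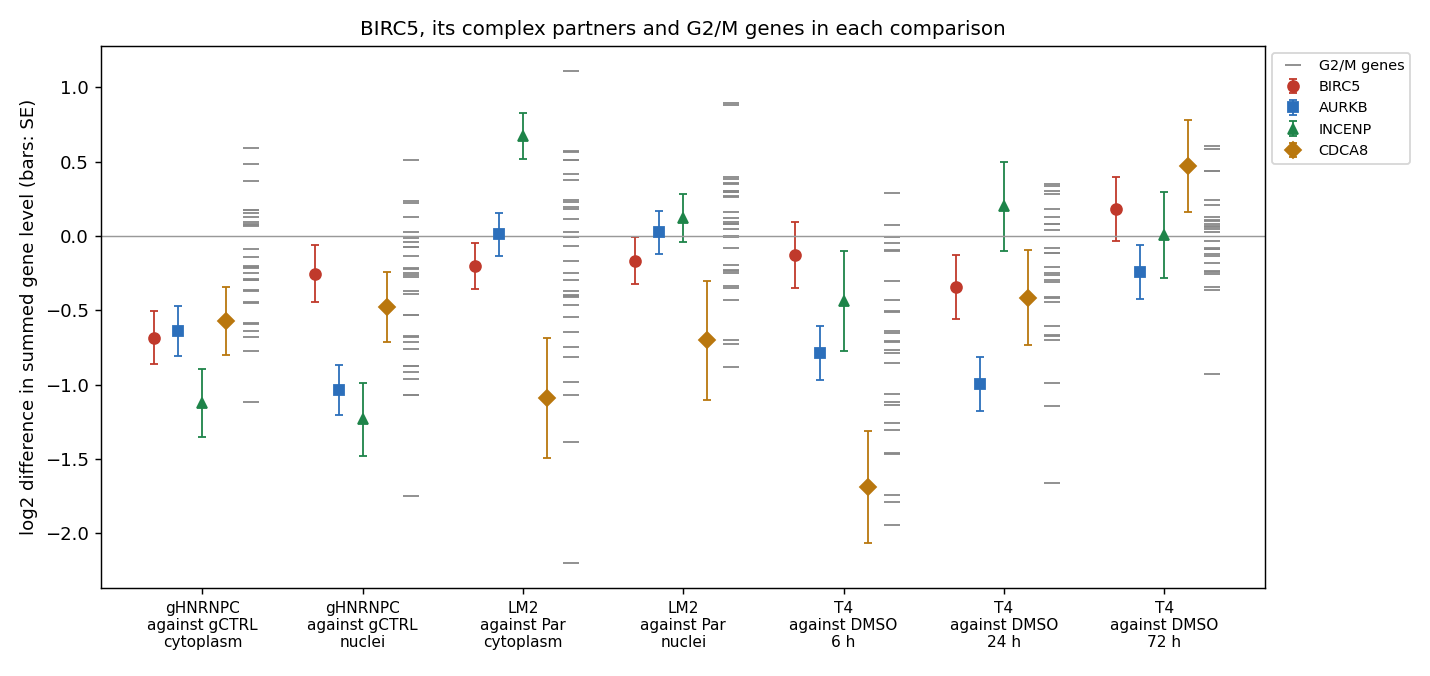
Log2 difference in summed gene level of BIRC5, AURKB, INCENP and CDCA8 in 7 comparisons, the first-named group over the other, with bars of 1 standard error, and each measured G2/M gene as a grey dash. AURKB lies at -0.79 and -0.996 with T4 at 6 and 24 h, where BIRC5 lies at -0.13 and -0.34.

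Over all genes, 3.41% rose and 12.6% fell with T4 at 6 h, 2.20% rose and 3.04% fell at 24 h, and 0.0996% rose and 0.162% fell at 72 h. Of 27 measured G2/M genes, 0 rose and 11 fell at 6 h, 0 rose and 2 fell at 24 h, and 0 were called at 72 h, with list medians of -0.71, -0.25 and 0.02. Without T4 library 3, 9 of 30 fell at 6 h, where 907 of 8405 genes fell and 13.4% were called in either direction. The largest differences at 6 h were those of the spindle checkpoint kinase gene BUB1B (-1.94 ± 0.61, edgeR adjusted p = 0.036) and the kinesin genes KIF14 (-1.79 ± 0.28, edgeR adjusted p = 0.00029), KIF20A (-1.74 ± 0.53, edgeR adjusted p = 0.032) and KIF2C (-1.47 ± 0.45, edgeR adjusted p = 0.032). Without T4 library 3 the calls of BUB1B (-1.66, edgeR adjusted p = 0.075) and KIF20A (-1.45, edgeR adjusted p = 0.067) ended, and those of KIF14 (-1.74) and KIF2C (-1.09) held. Fraction markers moved at 6 h too. The 6 cytoplasmic markers summed to 27127 to 51622 CPM with T4 against 19223 to 20444 CPM with DMSO, with 1 of 4 measured called higher. The 6 nuclear markers, 4 of them at 0, summed to 20.3 to 52.7 CPM with T4 against 58.6 to 67.2 CPM with DMSO, with 1 of 2 measured called lower. Their part in the differences of the G2/M genes was not tested. At 24 h CENPF, a kinetochore protein (-1.15 ± 0.27, edgeR adjusted p = 0.018), and CDC20, the activator of the anaphase-promoting complex (-0.67 ± 0.17, edgeR adjusted p = 0.032), fell.

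Of 13 measured G1/S genes, RRM2 (-1.19) and CDC6 (-1.16) fell at 6 h, RRM2 fell (-1.21) and MCM4 rose (1.43, a call that ended with median-of-ratios scaling) at 24 h, and 0 were called at 72 h. XIAP, an inhibitor of apoptosis that survivin is known to stabilise, fell at 6 h (log2 -2.25 ± 0.61, edgeR adjusted p = 0.017). Its levels were low, at 2.26 ± 1.34 CPM with T4 and 11.3 ± 3.99 CPM with DMSO (SD, n = 3 each). It was the 1 of 2 measured other inhibitor of apoptosis genes called, and the 1 of 6 survivin partners. Without T4 library 3, XIAP stayed called at -2.24, and HSP90AB1 was called higher as well (0.49, edgeR adjusted p = 0.038). RBL1 was the 1 of 9 regulators called at 6 h (-2.61). No gene of these 3 lists was called at 24 or 72 h, and none of the 7 caspases and antagonists at any harvest.

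Within the knockdown table the order of summed BIRC5 was gCTRL cytoplasm, gHNRNPC cytoplasm, gCTRL nuclei and gHNRNPC nuclei from high to low, and only the last pair of neighbours overlapped. Within the cell line table it was Par cytoplasm, LM2 cytoplasm, Par nuclei and LM2 nuclei, again with overlap of the last pair only. Within the T4 table the order was T4 at 72 h (162 ± 21.4 CPM), DMSO at 72 h (143 ± 11.6 CPM), DMSO at 24 h (136 ± 7.31 CPM), DMSO at 6 h (123 ± 12.9 CPM), T4 at 6 h (110 ± 35.6 CPM) and T4 at 24 h (107 ± 18.02 CPM; SD, n = 3 each). Every pair of neighbours in that order overlapped. Without T4 library 3 at 6 h, the other T4 libraries of that harvest, at 136 and 126 CPM, lie above the DMSO mean of 6 h. The tables were scaled separately, so no level is compared across them.

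For the distal end the order within the knockdown table was gHNRNPC cytoplasm (71.5 ± 13.3 CPM), gHNRNPC nuclei (51.4 ± 16.9 CPM), gCTRL cytoplasm (17.3 ± 2.52 CPM) and gCTRL nuclei (11.1 ± 3.39 CPM; SD, n = 3 each). The gHNRNPC fractions overlapped with each other, and the other neighbours did not. Group means lay between 15.7 and 20.1 CPM in the cell line table and between 11.8 and 17.8 CPM in the T4 table, with overlap of every pair of neighbours. The minor upstream end ran in the knockdown table from 0.56 CPM in gHNRNPC nuclei to 12.1 CPM in gCTRL cytoplasm.

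The genes whose summed levels most resembled those of BIRC5 included HMGA1, ARPC5, TMSB10 and SEC13. Pearson correlations of log2(CPM + 1), centred within each table, were 0.925, 0.916, 0.912 and 0.905 over 42 libraries, among 6547 genes with a mean of at least 10 counts in every table. The 42 libraries share tables, fractions and depth, so they are not independent points. AURKB had 0.446 (rank 1776), INCENP 0.194 and CDCA8 0.190.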

How the data were processed

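The authors deposited estimated counts per transcript end or position, for which the submitters' processing notes name Salmon 0.14.1 and hg38. GENCODE 29 gave gene names and GRCh38 coordinates. Of 94924 entries, 89065 were assigned to 42145 genes. Counts were rounded, filtered (filterByExpr), TMM-scaled and tested within each table with the edgeR 4.0.16 quasi-likelihood test in R 4.3.3, with 1 coefficient per group. A call is a Benjamini-Hochberg adjusted p under 0.05 over all features of a comparison. The scripts were tested on simulated data. Site use is the interaction of site and group for a gene's 2 most used ends, both averaging 10 counts or more. A transcript end paired with a position was taken as the distal one from the listing order, in every table. The members, the gene lists and the tests were chosen with earlier results of these data known. Named genes are HNRNPC, AURKB, INCENP, CDCA8, up to 4 called members per list and direction by size, and the 5 genes most like BIRC5; some genes that the rule would name are not reported here.

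Same-numbered libraries deviated together, with every correlation over 0.1, in LM2 and Par nuclei (0.626, 0.749 and 0.151) and in T4 and DMSO at 72 h (0.270, 0.626 and 0.134). The pairing is thus inferred from the data, not the labels, and the fits with the replicate number as a block are given where they change a count. No 2 libraries agreed within sampling noise. Alternatives were limma 3.58.1, DESeq2 1.42.0, other scalings and filters, and leaving out each library. The tables' names call the values normalised, but they are estimated counts, so the count test was used.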

Additional observations from a re-analysis of the deposited data

Results flagged for a closer look

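The main upstream end of BIRC5 went opposite ways after T4 at the later harvests. At 24 h all 3 T4 libraries were below all 3 DMSO libraries, by a mean difference of -21.6 CPM. At 72 h all 3 T4 libraries were above all 3 DMSO libraries, narrowly, with 127.3 CPM as the lowest T4 and 126.0 CPM as the highest DMSO value. The log2 difference at 72 h was 0.21, or 0.087 without T4 library 2. The T4 effect at 72 h minus that at 24 h was 0.51 ± 0.30 on the log2 scale. That difference was not tested here, since BIRC5 was chosen with results in view. No group of 4 or more libraries exists in this series, so no single library was compared with the spread of its group.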

How the results depend on the processing

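Of 394 values of BIRC5 under another setting, 365 stayed within the spread between replicates and 17 changed sign. Of 456 with 1 library left out, 452 stayed within it and 35 changed sign. Leaving out 1 of 3 libraries can hardly move a value beyond that spread, so the 452 are no measure of robustness. The distal end with T4 at 24 h, for one, ranged from -0.90 to 0.12 and still counted as within it. The end use of BIRC5 after the knockdown changed sign under none of the settings run. With library totals in place of TMM, the main upstream end was at -1.268 after the knockdown in the cytoplasm, -0.0221 for the difference of the knockdown effect (nuclei minus cytoplasm), -0.24 in LM2 against Par cytoplasm, -0.50 with T4 at 6 h, -0.50 at 24 h, 0.39 at 72 h, and 0.89 for the difference of 72 h minus 24 h. The sum was then at 0.18 for the difference of the knockdown effect, -0.27 in LM2 against Par cytoplasm, -0.54 with T4 at 24 h, 0.36 at 72 h and 0.90 for 72 h minus 24 h. In LM2 against Par cytoplasm, median-of-ratios scaling gave -0.0541 for the main upstream end and -0.0819 for the sum, and DESeq2 gave -0.0359 and -0.0817, with -0.21 for the difference of the LM2 effect on the main upstream end. Beyond the scaling itself, the cause was not tested.

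Without the position entries, the sum is the distal end alone by construction. After the knockdown it was at 2.04 in cytoplasm and 2.20 in nuclei (difference 0.16), -0.28 and 0.39 in LM2 against Par cytoplasm and nuclei (difference 0.67), -0.0195 with T4 at 72 h (0.34 for 72 h minus 24 h), and -0.48, -0.64, 0.34 and -0.32 in nuclei against cytoplasm of gHNRNPC, gCTRL, LM2 and Par cells. With 1 library left out, the main upstream end ranged from 0.13 to 0.41 for the difference of the knockdown effect, from -0.45 to -0.0353 for the T4 effect at 24 h minus 6 h, and from -1.42 to -1.11 in gCTRL nuclei against cytoplasm, where the sum ranged from -1.37 to -1.10. For the difference of the knockdown effect the low end came without library 3 and the high end without library 2 of gCTRL nuclei. In gCTRL nuclei against cytoplasm the larger differences came without nuclear library 2 and the smaller without nuclear library 3. For T4 at 24 h minus 6 h they came without T4 libraries 3 (-0.45) and 1 (-0.0353) of 6 h.

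With the replicate number as a block, where the number pairs the libraries, the sum of BIRC5 was at -0.17 in LM2 against Par nuclei and 0.18 with T4 at 72 h, and 134 and 12 genes were called in place of 189 and 21. Where libraries share only a number, the block gave 3.44 and 3.33 for end use after the knockdown. Counts of called genes over 1.5 times apart were 932 against 224 (library totals), 569 (no filter) and 2489 (compared libraries alone) in LM2 against Par cytoplasm, and 189 against 102 (totals) and 28 (alone) in nuclei. For T4 they were 1284 against 1966 (no filter) and 413 (alone) at 6 h, 421 against 1032 (no filter), 765 (DESeq2) and 1968 (alone) at 24 h, and 21 against 12 (totals), 49 (no filter), 83 (DESeq2) and 0 (alone) at 72 h. Genes called for site use were 118 against 45 in knockdown cytoplasm and 40 against 24 in nuclei with a site mean of at least 50. Among the lists, G2/M genes called lower in knockdown nuclei went to 10 with library totals against 6, and those in LM2 cytoplasm to 0 against 3. The distal end rests on 2 to 175 reads in a library, which limits every statement on its share outside the knockdown.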
